A study of Mus musculus with 4 samples.

Results

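The cells described here are fibroblasts of the meninges that remained in dissociated mouse cerebellum, picked out cell by cell from single-cell RNA counts. A cell was taken as a member if it had unique molecular identifiers (UMIs, 1 per captured RNA molecule) of at least 4 of 7 fibroblast genes: Dcn, Col1a1, Col1a2, Lum, Col3a1, Slc6a13 and Igfbp2. It could not have UMIs of 2 or more of the endothelial genes Cldn5, Pecam1 and Cdh5, or of 2 or more of the macrophage genes C1qa, C1qb, Csf1r and Mrc1. This rule gave 1595 members among 42576 cells that passed filters on gene number and mitochondrial share. The study profiled cerebella of wild-type mice (WT) and of mice labelled Eftud2 cKO at postnatal days 10 and 14 (P10 and P14) by droplet-based single-cell sequencing, with 1 library for each genotype and age. All libraries were made from tissue whose meninges had been removed before trypsin digestion, so the members are fibroblasts that this step left behind. The labels give neither the Cre line, the deleted exons, the sex nor the number of animals behind a library, and the series title places the Eftud2 deficiency in Purkinje cells. No difference at a single age has a replicate check, since each group is 1 library, and the intervals below are 95% intervals of counting error only.

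The meninges are the layered membranes around the brain: pia next to the neural tissue, arachnoid above it and dura under the skull. Their fibroblasts make the collagens and the laminin-rich basement membrane on which the brain surface rests, secrete retinoic acid, insulin-like growth factors and chemokines during development, and carry solute transporters at the border with the cerebrospinal fluid. Like most stromal cells they answer type I interferon, which binds the Ifnar1 and Ifnar2 receptor pair and switches on genes that limit viruses. The Eftud2 protein is a GTPase found in the spliceosome, as part of the U5 particle.

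The marker genes matched the label in all 4 libraries. Dcn (decorin, a small proteoglycan that binds collagen fibrils; ENSMUSG00000019929, chr10:97479609-97518143, plus strand, GRCm38) was at 4684, 3569, 4689 and 3934 CPM (UMIs of a gene per 1000000 UMIs summed over the members of a library). The 4 values of a gene are given throughout for the WT and the cKO library at P10, then for those at P14. Slc6a13, a GABA and taurine transporter of meningeal fibroblasts, was at 828, 734, 707 and 626 CPM. Lum (lumican) was at 333, 291, 313 and 273 CPM, and in mural cells it was at 5.48 CPM in P10 WT and 0 in the other libraries. Because the rule chose cells by these genes, such levels describe the choice and carry no test. Of the exclusion genes, Pecam1 was at 0.372 to 1.06 CPM in the members against 360 to 473 CPM in endothelial cells, and Cldn5 at 0 to 6.56 CPM against 3967 to 4781 CPM. Cdh5 behaved differently, with 87.6, 110, 117 and 102 CPM in the members, and 585, 82, 164 and 68 members had a UMI of it. Vtn (vitronectin), used as a pericyte marker, was at 3558, 3228, 3028 and 4772 CPM in the members, close to the 2713, 3129, 5041 and 4112 CPM of mural cells. The other pericyte markers were low: Abcc9 was at 2.64 to 6.20 CPM in the members against 561 to 1225 CPM in mural cells, and Cspg4 at 3.70 to 9.31 CPM against 382.5 to 438.9 CPM.

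Members close to the limit of the rule had less RNA of the rule genes. In P10 WT, the 83 members with exactly 4 rule genes had Dcn at 159.5 CPM and summed granule neuron markers at 2859.2 CPM, whereas the 775 members with all 7 had 5675.8 and 754 CPM. The 226 cells of that library just outside, with 3 rule genes, had Dcn at 42.04 CPM. The 2 members of P10 cKO with exactly 4 rule genes had Dcn at 27.05 CPM and granule neuron markers at 2623.9 CPM, and the 8 of P14 cKO had 234.6 and 2647.8 CPM. In P14 WT the 18 such members had Dcn at 2367.8 CPM.

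Promoters of interferon-induced genes are shown first, since all measured genes of the interferon response list were higher in cKO at P14. Cxcl10, which is counted in the chemokine list and not in that list, is shown with them. The sequences are the 250 bases before the annotated start from RefSeq (GRCm38.p6), 5′ to 3′ on the gene's strand, and capitals mark matches to the interferon-stimulated response element core GAAANNGAAA on either strand, overlaps allowed. They lie at chr5:92348890-92349139 (minus) for Cxcl10, chr12:26456453-26456702 (minus) for Rsad2, chr19:34583279-34583528 (plus) for Ifit3, chr19:34640639-34640888 (plus) for Ifit1, chr4:156200819-156201068 (minus) for Isg15 and chr7:141266425-141266674 (minus) for Irf7.
Cxcl10: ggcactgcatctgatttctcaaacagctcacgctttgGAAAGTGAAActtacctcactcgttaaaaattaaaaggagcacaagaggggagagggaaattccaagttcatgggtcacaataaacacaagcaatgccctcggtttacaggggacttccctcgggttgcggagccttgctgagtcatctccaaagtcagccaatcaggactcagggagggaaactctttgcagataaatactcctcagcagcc
Rsad2: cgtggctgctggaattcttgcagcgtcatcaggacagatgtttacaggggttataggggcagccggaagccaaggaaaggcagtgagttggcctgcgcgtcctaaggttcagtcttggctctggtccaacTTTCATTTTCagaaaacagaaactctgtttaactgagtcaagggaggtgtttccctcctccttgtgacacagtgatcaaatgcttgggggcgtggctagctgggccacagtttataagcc
Ifit3: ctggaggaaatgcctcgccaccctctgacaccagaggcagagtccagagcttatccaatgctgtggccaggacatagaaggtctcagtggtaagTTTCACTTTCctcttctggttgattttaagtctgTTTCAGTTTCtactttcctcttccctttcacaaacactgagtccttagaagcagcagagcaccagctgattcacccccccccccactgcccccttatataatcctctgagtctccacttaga
Ifit1: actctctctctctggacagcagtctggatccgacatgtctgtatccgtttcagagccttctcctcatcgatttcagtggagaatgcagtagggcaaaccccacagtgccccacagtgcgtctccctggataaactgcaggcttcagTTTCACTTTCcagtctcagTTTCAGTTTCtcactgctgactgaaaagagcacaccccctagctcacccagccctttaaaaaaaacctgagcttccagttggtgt
Isg15: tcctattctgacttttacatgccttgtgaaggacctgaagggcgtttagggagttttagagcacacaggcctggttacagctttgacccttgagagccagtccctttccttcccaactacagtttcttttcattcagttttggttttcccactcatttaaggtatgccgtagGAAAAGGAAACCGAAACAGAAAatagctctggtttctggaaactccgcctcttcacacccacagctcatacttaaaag
Irf7: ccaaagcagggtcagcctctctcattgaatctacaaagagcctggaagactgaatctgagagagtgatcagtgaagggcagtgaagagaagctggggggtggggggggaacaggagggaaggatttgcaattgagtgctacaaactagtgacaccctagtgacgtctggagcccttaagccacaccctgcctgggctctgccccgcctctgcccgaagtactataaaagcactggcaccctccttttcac
The first match began 213 bases before the start in Cxcl10, 120 in Rsad2, 156 and 122 in Ifit3, and 104 and 85 in Ifit1. Isg15 had 3 overlapping matches in 1 run, GAAAAGGAAACCGAAACAGAAA, that began 78 bases before the start. The Irf7 window held no match. The motif was present in 978 of 32851 promoters (2.98%) and in 16 of the 36 promoters of the interferon list that were in the table (44.4%). Among list genes past a doubling at P14 it was present in 8 of 16 (50%), and among measured list genes below a doubling in 7 of 18 (38.9%). For comparison it was in 1 of 29 promoters of the transporter list and in none of 14 promoters of the basement membrane list. A match is a description of these letters and not evidence of binding.

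The members' marker genes kept their order of magnitude over all libraries, as the plot of levels shows. Ptgds, which encodes prostaglandin D synthase of the leptomeninges, was at 32960, 21311, 21374 and 18304 CPM. Sparc, a calcium-binding matrix protein, was at 5227, 4755, 4071 and 5130 CPM. The smallest log2 fold of the members over all other cells, taken over the 4 libraries after 5 CPM were added, was 4.44 for Dcn, 4.43 for Igf2 and Col1a2, 4.36 for the cystine transporter Slc7a11 and for Slc6a13, 4.24 for Serpinf1 and for the organic anion transporter Slc22a6, and 4.12 for the gap junction gene Gjb2. These 4 libraries thus held cells with the collagen, transporter and growth factor genes of leptomeningeal fibroblasts, and the choice of cells used this contrast.

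**Figure D1:**
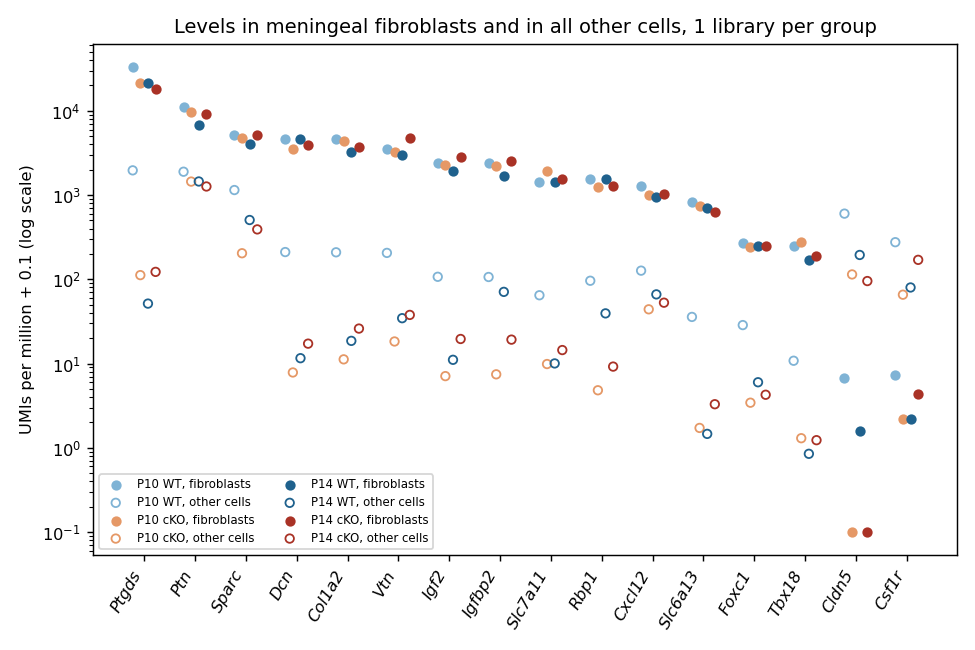
Level of 16 genes (CPM with a small constant added, log axis) in the members (filled points) and in all other cells (open points) of each library, coloured by library, with no error bars. The members lie above the other cells for the first 14 genes, for example Slc6a13 between 626 and 828 CPM against 1.36 to 35.7 CPM, and below them for the endothelial gene Cldn5 and the macrophage gene Csf1r.

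The members made up 7.72% of P10 WT cells (1102 of 14280, exact binomial interval 7.29 to 8.17), 1.70% of P10 cKO cells (112 of 6593, 1.40 to 2.04), 1.76% of P14 WT cells (271 of 15395, 1.56 to 1.98) and 1.74% of P14 cKO cells (110 of 6308, 1.44 to 2.10). P10 WT stood apart and the other shares overlapped. The meninges were removed by hand before digestion, so the shares also hold what each dissection left, and this cannot be told apart from genotype or age. The members' UMIs came to 13423345, 1935367, 3340256 and 1892544, with medians of 10712.5, 16492, 11019 and 17827 UMIs per cell. In each pair the cKO members were the deeper ones and the fewer. The libraries shared at most 76 barcodes, and 2 member barcodes were shared, both between P10 WT and P10 cKO.

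P10 WT differed from the other libraries in 3 further ways. Rule genes summed to 870.7 CPM in its other cells, while the remaining libraries had 40.68, 113.8 and 94.88 CPM there, a sum that holds free fibroblast RNA as well as fibroblasts the rule missed. The exclusion genes kept out 442 of its cells with at least 4 rule genes, against 11, 17 and 17 in the remaining libraries. Of the 442, 306 had 2 or more macrophage genes and 191 had 2 or more endothelial genes. Cells kept out this way are counted among the other cells. Haemoglobin and other erythroid genes summed to 4385.6 CPM in its members against 13.95, 36.82 and 64.46 CPM. Its matrix was written by another program version than the others, per the file headers, and the ratio of P10 cKO over P10 WT was higher for genes with long introns, with a median log2 of −0.35 for 425 genes without introns and 1.40 for 1687 genes with introns of 100 kb or more. The ratio at P14 was −0.06 and 0.01 in the same bins, as the plot by intron length shows. The P14 pair is therefore described first. Xist, the RNA of the inactive X chromosome, was at 1036.2, 2.58, 929 and 882.4 CPM and Y-linked Ddx3y at 0.149, 101.8, 4.19 and 1.06 CPM, so the libraries of the P10 pair stood on opposite sides and those of the P14 pair both had high Xist. Eftud2 itself (ENSMUSG00000020929, chr11:102838473-102880985, minus strand, GRCm38) was at 32.7, 37.2, 33.5 and 26.4 CPM. Its log2 ratio of cKO over WT was −0.34 (−0.85 to 0.15) at P14 and 0.19 (−0.19 to 0.55) at P10, so both intervals held 0. The deleted exons are not given, and a 3′ tag outside them would not show the deletion.

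**Figure D2:**
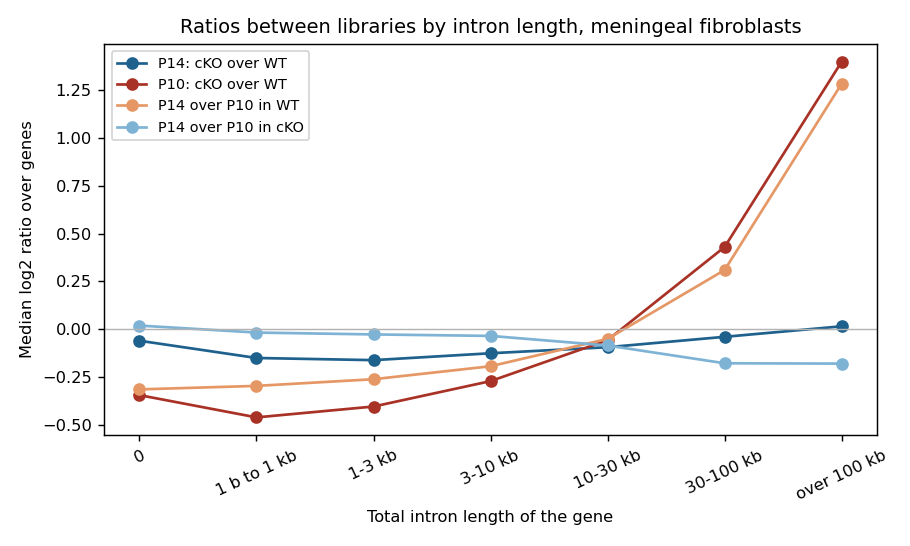
Median log2 ratio over genes (vertical axis) in 7 bins of total intron length (horizontal axis) for the P14 pair, the P10 pair, and P14 over P10 within WT and within cKO, in the members. The P10 pair and the WT ages lie at −0.35 and −0.32 without introns and at 1.40 and 1.28 over 100 kb, while the other 2 comparisons stay between −0.18 and 0.02.

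The members fell into 12 sub-clusters when all libraries were clustered together without batch correction. Most sub-clusters were made of P10 WT cells or of the 3 other libraries, so such groups may stand for a library and not for a kind of cell. Sub-cluster 3 held 81 of 112 P10 cKO, 145 of 271 P14 WT and 62 of 110 P14 cKO members and none from P10 WT. It was the only sub-cluster with at least 20 cells in both P14 libraries, and values within it are used below. Sub-clusters 6 and 8 carried genes of the dural layer, at 19702.3 and 18615.2 CPM, against 211.6 to 1353.9 CPM in the other 10. Sub-cluster 6, led by Sfrp4, Mgp and Nppc, held 103, 3, 16 and 1 cells of the libraries in the order above, and sub-cluster 8, led by Slc4a10 and Bnc2, held 0, 11, 51 and 11. Vtn and the other mural genes were nearly absent from them, at 44.0 and 60.9 CPM. Sub-cluster 4, led by Igfbp3, Wnt6 and Gng11, had transporter genes at 77096 CPM and was almost all P10 WT.

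**Figure D3:**
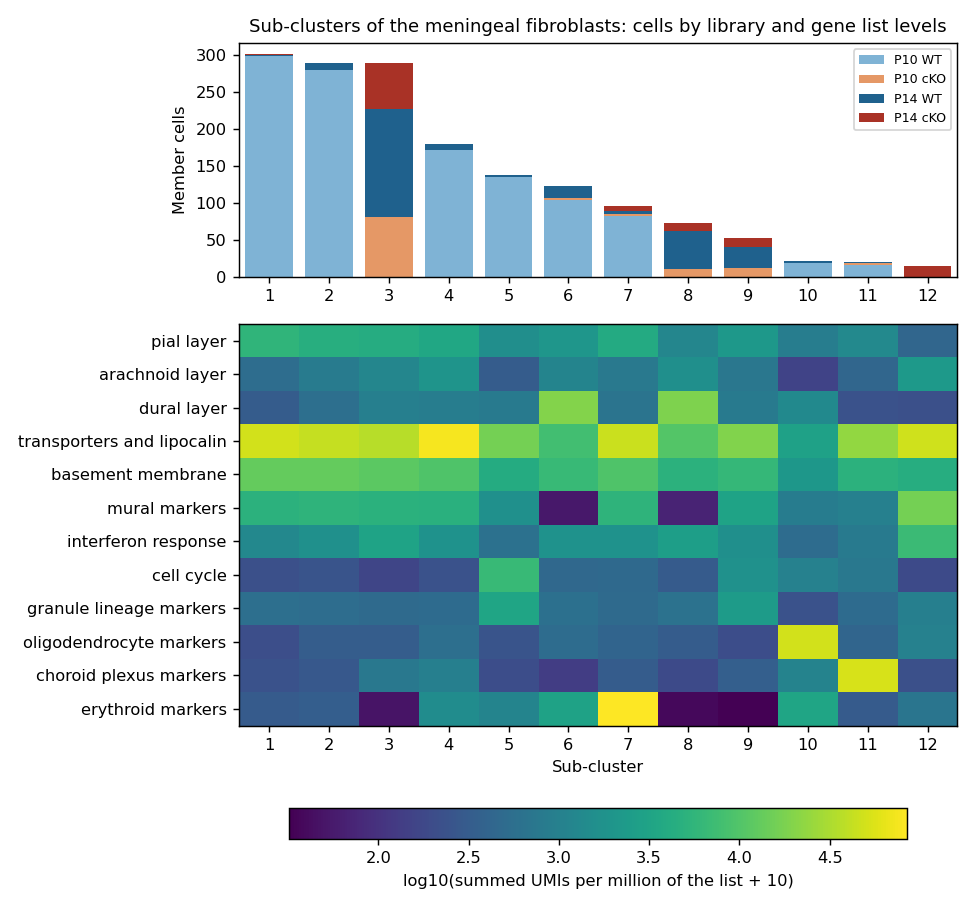
Member cells per sub-cluster, stacked by library (top, number of cells), and the summed level of 12 gene lists in each sub-cluster (bottom, colour, log10 of CPM with a constant added). P10 WT makes up most of sub-clusters 1, 2, 4, 5, 6, 7, 10 and 11 and has no cell in 3, 8, 9 and 12. The dural list is highest in 6 and 8, where the mural list is lowest.

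Some sub-clusters were led by genes of other cells. Sub-cluster 5 (138 cells, 135 of them P10 WT) was led by Cenpf and Top2a, had granule neuron markers at 3257.4 CPM and held 37 called doublets. Sub-cluster 7 was led by haemoglobins and had a median of 2236 UMIs per cell, sub-cluster 9 was led by the neuronal genes Erbb4, Grik2 and Nrg1, sub-cluster 10 by myelin genes such as Mag and Mobp, and sub-cluster 11 by Ttr and Aqp4. Sub-cluster 12 held 15 cells, all of P14 cKO, with a median of 1569 UMIs. It was led by the smooth muscle gene Tagln and by Pcp4 and Cyp26b1, with interferon genes at 6806.6 CPM and mural genes at 16505 CPM. None of the sub-clusters is given a cell type name here.

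At P14 the members of cKO had more RNA of interferon-induced genes than those of WT. The interferon response list has 50 genes, and all 44 that were measured (at least 20 UMIs in the pair) were higher in cKO, 38 of them with an interval above 0, as 8.99% of all measured genes had. The median log2 ratio was 1.05, against −0.08 over the 12192 genes measured, of which 40.7% were higher in cKO. A doubling was passed by 23 of the 44, where 2.40% of all measured genes passed it, and 7.33% passed a doubling or a halving. The other cells of the same libraries had a median of 1.08 for this list. In each library the list sum was higher in the members than in all other cells together. It was 1263.8, 2143.3, 2402.5 and 4079.7 CPM in the members and 599.1, 436.2, 418.5 and 914.2 CPM in the other cells. Such levels were not particular to the members. Endothelial cells had the list at 1126.7, 4112.1, 2460.7 and 3843.4 CPM, and mural cells at 1066.5, 1592.2, 2198.2 and 3134.1 CPM.

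A single P14 cKO cell carried part of this. It held 1267 of the 7721 list UMIs (16.4%) and had the most UMIs of 40 of the 47 list genes detected there. It was a fibroblast by the rule, with all 7 rule genes and 784 of their UMIs among 44951, 5 UMIs of macrophage markers and a doublet score of 0.0477. Without this cell the median over the same 44 genes was 0.69, with 42 genes higher, 2 lower and 17 past a doubling. The difference was also seen over cells: the list took a median of 3152 CPM per cell in P14 cKO (quartiles 2008 and 4812), and the WT cells of that age had 1875 CPM (1296 and 3083). Within sub-cluster 3 the list median was 1.19 with this cell, which belongs to it, and 0.74 over 43 genes without it. It was lowest, 0.25 over 24 genes, among the 31 cKO and 94 WT members without a UMI of any exclusion gene. Those cKO cells were shallow, with a median of 4416 UMIs against 20248 in the other P14 cKO members and 9055 in the WT cells beside them, and 9 of the 31 were from sub-cluster 12. That sub-cluster had the interferon list at 6806.6 CPM, against 3082.1 CPM in sub-cluster 3. The part of depth and of sub-clusters in the low median was not tested.

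Cxcl10, a chemokine that interferon induces and that attracts activated T cells, is counted here in the chemokine list (ENSMUSG00000034855, chr5:92346638-92348889, minus strand). It was at 1.79, 0.517, 8.68 and 91.9 CPM. P14 cKO was the high library, yet 8 cells had a UMI in each P14 library and the cell described above held 62.6% of those in cKO. The log2 ratio at P14 was 3.38 (2.83 to 4.03), and 2.01 without that cell. In the other cells the ratio was 1.24 (1.16 to 1.33). Among the effectors, Rsad2 (viperin, which makes a chain-terminating nucleotide; ENSMUSG00000020641, chr12:26442746-26456452, minus strand) was at 3.43, 1.55, 3.29 and 50.7 CPM. Its ratio was 3.89 (3.04 to 5.0), and 2.64 without the cell. Iigp1, an interferon-induced GTPase against intracellular parasites, was at 3.20, 7.23, 14.1 and 86.1 CPM, and its ratio of 2.60 (2.14 to 3.11) was 1.46 without the cell.

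Ifit3, which helps IFIT1 bind viral RNA (ENSMUSG00000074896, chr19:34583531-34588731, plus strand), was spread over many cells. It was at 38.7, 48.6, 71.5 and 230 CPM, and with each cell thinned to 3000 UMIs, which left out 79, 4, 12 and 16 shallower members, 9.48%, 15.7%, 15.4% and 30.9% of the members had a UMI of it, against 0.982%, 0.847%, 0.410% and 1.94% of other cells. Without thinning 23.2%, 36.6%, 35.1% and 51.8% of the members had one. The thinned share in P14 cKO was the highest and the one in P10 WT the lowest. The P14 ratio was 1.68 (1.45 to 1.92), and 1.38 without the cell with most list UMIs. Ifit1, which binds RNA lacking a host cap, was at 7.38, 32.5, 36.8 and 95.6 CPM with a ratio of 1.38 (1.04 to 1.72). Ifit2 was at 27.9, 23.8, 18.3 and 68.7 CPM. Its ratio of 1.91 (1.46 to 2.38) dropped to 0.18 without that 1 cell, which held 70.8% of the Ifit2 UMIs in P14 cKO.

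Among membrane restriction genes, Bst2 (tetherin, which holds budding virus at the cell surface) was at 32.3, 106, 136 and 285 CPM. The thinned share of members with a UMI was 7.72%, 22.2%, 23.9% and 40.4%, and in other cells 12.2%, 4.22%, 5.23% and 10.5%. Its P14 ratio was 1.06 (0.88 to 1.24), and 0.80 without the cell with most list UMIs. Ifitm3, which blocks viral entry at endosomes, was at 522, 712, 803 and 1087 CPM with a ratio of 0.44 (0.35 to 0.52). In both genes P10 WT was the lowest library and P14 cKO the highest. Isg15, a ubiquitin-like modifier, was at 11.3, 57.4, 68.6 and 124 CPM with a ratio of 0.85 (0.58 to 1.12), or 0.42 without the cell.

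Genes that carry or limit the signal differed to unequal degrees between the P14 libraries. Usp18, which removes ISG15 and dampens the receptor (ENSMUSG00000030107, chr6:121245906-121270917, plus strand), was at 5.36, 23.2, 11.7 and 60.2 CPM, so cKO was the higher library at both ages. Its P14 ratio was 2.35 (1.83 to 2.93), and 1.83 without the cell. Stat2, a transcription factor of the type I interferon signal, was at 15.6, 46.0, 65.3 and 70.3 CPM with a ratio of 0.11 (−0.22 to 0.42). Irf7, a factor that raises the output of interferon genes, was at 3.50, 9.30, 8.68 and 28.5 CPM with a ratio of 1.71 (1.04 to 2.42). The receptor gene Ifnar1 was at 57.5, 65.6, 47.3 and 44.9 CPM, and Ifnar2 was at 153, 202, 185 and 221 CPM. In the subset without exclusion gene UMIs, Isg15 (−0.28), Bst2 (−0.57) and Ifit2 (−2.08) were on the other side of 0. Among the promoters printed, Ifit3, Ifit1 and Isg15 with 2 or 3 matches belonged to genes with ratios from 0.85 to 1.68. Cxcl10 and Rsad2 with 1 match belonged to genes with ratios of 3.38 and 3.89, and Irf7 with none to a gene with 1.71. Without the cell with most list UMIs, Ifit3, Ifit1 and Isg15 had ratios of 1.38, 1.02 and 0.42. Those of Cxcl10, Rsad2 and Irf7 were then 2.01, 2.64 and 1.20.

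**Figure D4:**
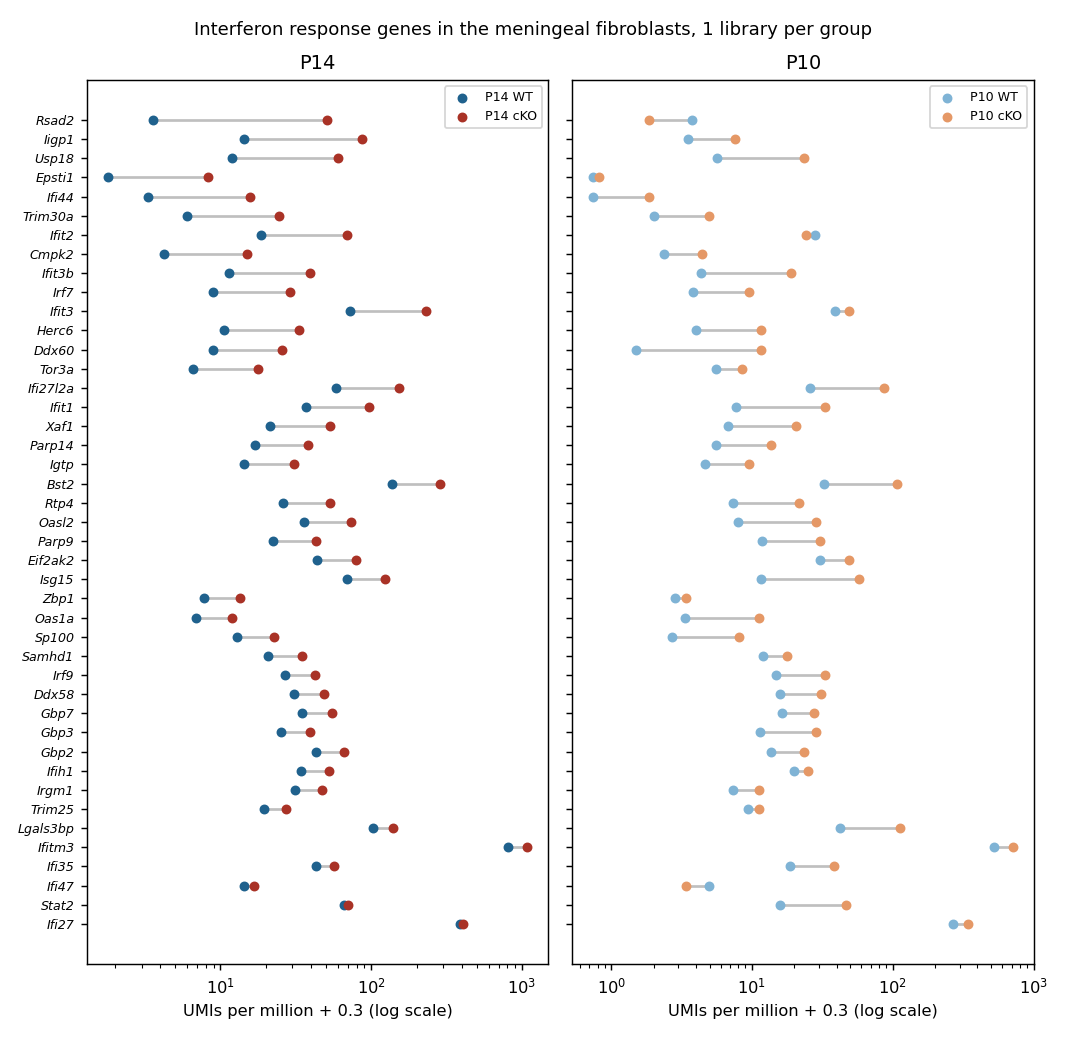
Level (CPM with a small constant added, log axis) of interferon list genes measured at P14 in the WT and the cKO members, at P14 (left) and at P10 (right), 1 point per library joined by a line and sorted by the P14 ratio. At P14 the cKO point lies to the right for every gene shown, from Rsad2 with a log2 ratio of 3.89 at the top to Ifi27 with 0.07 at the bottom.

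Antigen presentation genes of MHC class I, which interferon also acts on, were not on balance higher or lower. Of 15 measured, 9 were higher and 6 lower in P14 cKO, where 40.7% of all measured genes were higher. The median was 0.02, and 1 gene passed a doubling, as 2.40% of all measured genes did. B2m, the light chain of class I molecules, was at 196, 179, 298 and 358 CPM with a ratio of 0.26 (0.12 to 0.41). H2-K1 was at 39.5, 39.3, 78.1 and 59.2 CPM with a ratio of −0.40 (−0.73 to −0.08), and H2-D1 at 53, 54.2, 116 and 96.2 CPM with −0.27 (−0.54 to −0.02), or 0.09 within sub-cluster 3. Tap1, a peptide transporter subunit, was the gene past a doubling, at 7.97, 9.82, 8.08 and 22.7 CPM with 1.48 (0.76 to 2.24). Without the cell with most interferon list UMIs its ratio was 1.05. In the other cells the list median was 0.68. In the fit of members against other cells over both ages, described last, none of 18 class I genes had an unadjusted p under 0.05.

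Matrix genes differed less between the P14 genotypes. In the basement membrane list 16 of 18 genes were higher in cKO, where 40.7% of all measured genes were. Of these genes 13 had an interval above 0, against the 8.99% of all genes, and none passed a doubling upwards. The median was 0.33, where the other cells had −0.36. Sparc had a ratio of 0.33 (0.30 to 0.37). Col4a1, a chain of the type IV collagen network, was at 725, 756, 481 and 717 CPM with a ratio of 0.58 (0.47 to 0.68), so P14 WT was the lowest library. Lamb1, a laminin chain, was at 235, 295, 160 and 244 CPM with 0.61 (0.43 to 0.79). Col4a6 was at 108, 314, 180 and 290 CPM with 0.69 (0.52 to 0.86). The exceptions were Lamb2, at 154, 121, 152 and 123 CPM with −0.31 (−0.54 to −0.08), and Npnt (nephronectin), at 5.51, 1.55, 6.29 and 2.11 CPM with −1.44 (−3.58 to −0.01). The list median was 0.09 within sub-cluster 3 and −0.07 in the members without an exclusion gene UMI, where Sparc (−0.26), Col4a1 (−0.07) and Lamb1 (−0.07) were also lower in cKO. Endothelial and mural cells make the same genes, and summed endothelial markers were at 1073.9 and 1264.4 CPM and mural markers at 3105.7 and 4896.6 CPM in the WT and the cKO members of P14. Without Vtn the mural list was at 77.5 and 124.7 CPM, and its gene Tagln was at 20.1 and 71.9 CPM. Their part in the result was not tested.

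The fibrillar collagens, which the rule used in part, are given as a description. Col1a1 was at 3214, 3118, 2160 and 2783 CPM with a P14 ratio of 0.37 (0.31 to 0.42), Col1a2 at 4601, 4363, 3267 and 3728 CPM with 0.19 (0.15 to 0.23), and Col3a1 at 3278, 3128, 2011 and 2405 CPM with 0.26 (0.20 to 0.31). In all of them P14 WT was the lowest library and the P10 libraries lay close together. In the members without an exclusion gene UMI their ratios were −0.08, −0.29 and −0.16. Dcn had −0.25 (−0.29 to −0.21) and Lum −0.20 (−0.35 to −0.04). The enzymes that modify and fold collagen had a median of −0.07 over 22 genes with none past a doubling, and the matrix proteoglycans and glycoproteins −0.10 over 30 genes, 3 of them past a doubling downwards, a fold that 4.93% of all measured genes passed.

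Genes of the dural layer were lower in P14 cKO members. Of 10 measured, 9 were lower and 5 passed a halving, where 59.3% of all measured genes were lower and 4.93% passed it, and the median was −1.03. Mgp, an inhibitor of calcification, was at 1626, 2116, 3253 and 1440 CPM, highest in P14 WT, with a ratio of −1.18 (−1.24 to −1.11). Fxyd5, a regulator of the sodium pump, was at 261, 303, 714 and 313 CPM with −1.19 (−1.32 to −1.06). Foxc2, a transcription factor of the mesenchyme, was at 46.2, 39.3, 84.1 and 35.9 CPM with −1.22 (−1.63 to −0.84). The secreted matrix protein Smoc2 was at 49.8, 50.6, 80.8 and 43.9 CPM with −0.88 (−1.26 to −0.52), and Ccn3 at 101, 191, 506 and 378 CPM with −0.42 (−0.55 to −0.29). These genes were concentrated in sub-clusters 6 and 8, which held 16 and 51 of 271 P14 WT members and 1 and 11 of 110 P14 cKO members. Without those sub-clusters the list median was −1.26, and within sub-cluster 3 it was −0.15, where Fxyd5 (0.01) and Ccn3 (0.27) were not lower. At P10 the list went the other way, with 9 of 11 genes higher in cKO, where 54.3% of all measured genes were higher. There 1 gene passed a doubling and 1 a halving, as 18.6% and 5.33% of all measured genes did. The part of intron length in these P10 ratios was not tested. Bone genes moved with the dural list at P14: skull and cartilage markers summed to 957.4 CPM in WT members and to 104.6 CPM in cKO members of that age, and a single P14 WT cell held 99.9% of the 1598 UMIs of Bglap (osteocalcin).

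The other layers were more even. Of the pial list 8 of 10 genes were higher in P14 cKO, where 40.7% of all measured genes were, and none passed a doubling. The median was 0.28, or −0.14 in the members without an exclusion gene UMI. S100a6, a calcium-binding protein, was at 1043, 814, 298 and 523 CPM with a ratio of 0.81 (0.69 to 0.94), and Rdh10, which makes retinal from retinol, at 86.2, 96.6, 50.3 and 98.3 CPM with 0.97 (0.66 to 1.28). The arachnoid list had 7 of 9 genes lower, where 59.3% of all measured genes were lower, and a median of −0.26. Slc47a1, a cation exporter, was at 62.0, 177, 251 and 75.6 CPM with −1.73 (−2.00 to −1.47), while Aldh1a2, which makes retinoic acid, was at 300, 373, 271 and 345 CPM with 0.35 (0.20 to 0.50). Among genes of the arachnoid barrier, the tight junction scaffold Tjp1 was at 170, 390, 262 and 438 CPM with 0.74 (0.60 to 0.88), or −0.18 without members with an exclusion gene UMI, Dpp4 at 18.2, 20.7, 21.9 and 49.7 CPM with 1.18 (0.73 to 1.65), and the phosphatase Alpl at 17.9, 40.3, 82.6 and 24.3 CPM with −1.75 (−2.25 to −1.31). That list had no common direction, with 4 genes higher and 5 lower, close to the 59.3% lower among all measured genes.

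Of 33 transporter genes 23 were lower in P14 cKO, with a median of −0.47, and 7 passed a halving, where 59.3% and 4.93% of all measured genes did. Ptgds had a small ratio of −0.22 (−0.24 to −0.21). Its sign depended on how cells were weighted, since the mean of CPM over cells gave 0.17 and the members without an exclusion gene UMI 1.25. Slc4a10, a bicarbonate transporter that led sub-cluster 8, was at 59.9, 372, 529 and 302 CPM with −0.81 (−0.95 to −0.67). Higher in cKO were Slc13a4, a sulfate transporter, at 364, 381, 224 and 384 CPM with 0.77 (0.63 to 0.92), and Slc16a12, a monocarboxylate transporter family member, at 44.5, 106, 67.7 and 140 CPM with 1.05 (0.79 to 1.31). Slc16a12 was the member of the list past a doubling.

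In the insulin-like growth factor system genes differed in both directions. Igf2, a fetal growth factor, was at 2417, 2261, 1915 and 2795 CPM with a P14 ratio of 0.55 (0.49 to 0.60), and Igfbp2, a rule gene, at 2385, 2194, 1704 and 2520 CPM with 0.56 (0.51 to 0.62). H19, the noncoding RNA of the imprinted domain next to Igf2, was at 101, 189, 197 and 97.2 CPM with −1.02 (−1.26 to −0.78). Igfbp5 was at 803, 506, 974 and 321 CPM with −1.60 (−1.73 to −1.48), and Igfbp7 at 180, 93.5, 249 and 102 CPM with −1.28 (−1.51 to −1.05). Both binding proteins were lower in cKO at both ages. Igfbp3 was at 78.6, 49.6, 83.2 and 130 CPM with 0.64 (0.38 to 0.89). Over the list 7 genes were higher and 5 lower, and 3 passed a halving, where 59.3% of all measured genes were lower and 4.93% passed it.

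Secreted and inflammatory genes varied in both directions. Of 44 secreted signals 19 were higher and 25 lower, close to the 59.3% lower among all measured genes, with none past a doubling and 4 past a halving, among them Slit3, an axon guidance ligand, at 11.4, 97.1, 133 and 51.2 CPM with −1.37 (−1.71 to −1.06). In the retinoic acid pathway Aldh1a1 was at 261, 298, 241 and 420 CPM with 0.80 (0.66 to 0.95) and the retinol carrier Rbp4 at 97.1, 70.8, 455 and 209 CPM with −1.12 (−1.28 to −0.96), the latter with 0.36 as a mean over cells. The monocyte chemokine Ccl7 was at 24.9, 4.65, 71.5 and 20.6 CPM with −1.78 (−2.32 to −1.30). Its neighbour Ccl2 was at 15.3, 1.03, 35 and 76.1 CPM with 1.12 (0.76 to 1.48), but 82.6% of its UMIs in P14 cKO came from 1 cell and without the top cells the ratio was −1.05. Nfkbia, the inhibitor induced by NF-kB, was at 99.7, 60.5, 340 and 176 CPM with −0.94 (−1.13 to −0.77), and Tnfaip6, a hyaluronan-binding protein, at 11, 41.9, 66.8 and 145 CPM with 1.12 (0.86 to 1.38). Chemokine and inflammatory genes as a list had 7 genes higher and 11 lower, again close to the share over all genes, and a median of −0.11.

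Cell cycle genes were lower in P14 cKO members, 21 of 22, where 59.3% of all measured genes were lower. The list median was −1.02 in the members and −0.55 in the other cells of the same libraries. In those other cells the list summed to 2642.8 CPM in WT and 1841.3 CPM in cKO. Top2a was at 153, 73.4, 28.4 and 5.81 CPM with −2.23 (−3.34 to −1.39), Mki67 at 110, 52.2, 27.8 and 10.0 CPM with −1.44 (−2.27 to −0.75), and Ube2c at 114, 35.1, 31.1 and 9.51 CPM with −1.68 (−2.52 to −0.98). Few cells were behind these values, since Top2a had a UMI in 22 P14 WT and 6 P14 cKO members. Without the sub-clusters led by genes of other cell types the list median was 0.23 over 10 genes, within sub-cluster 3 it was 0.30 over 3 genes, and Top2a was then at 0.15 and 0.12. Granule neuron markers, which mark the main proliferating lineage of the cerebellum, summed to 836.5 and 776.7 CPM in the WT and the cKO members of P14.

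The U5 snRNP list, to which Eftud2 belongs, had 6 genes higher and 9 lower, close to the 59.3% lower among all measured genes. None passed a doubling or halving, and the median was −0.23. Immediate early genes, which dissociation is known to induce, had 16 of 23 higher, where 40.7% of all measured genes were higher. Their median was 0.14, with none past a doubling. Markers of other cells also differed between the P14 libraries. Macrophage and microglia markers summed to 32.63 and 112.5 CPM, choroid plexus markers to 2016.3 and 385.2 CPM, and erythroid genes to 36.82 and 64.46 CPM in WT and cKO members. For Tyrobp 1 cell held 79.8% of the P14 cKO UMIs, and for Ttr, the choroid plexus gene, 1 cell held 63.4% of the 5331 UMIs of P14 WT. Their part in the results above was not tested.

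**Figure D5:**
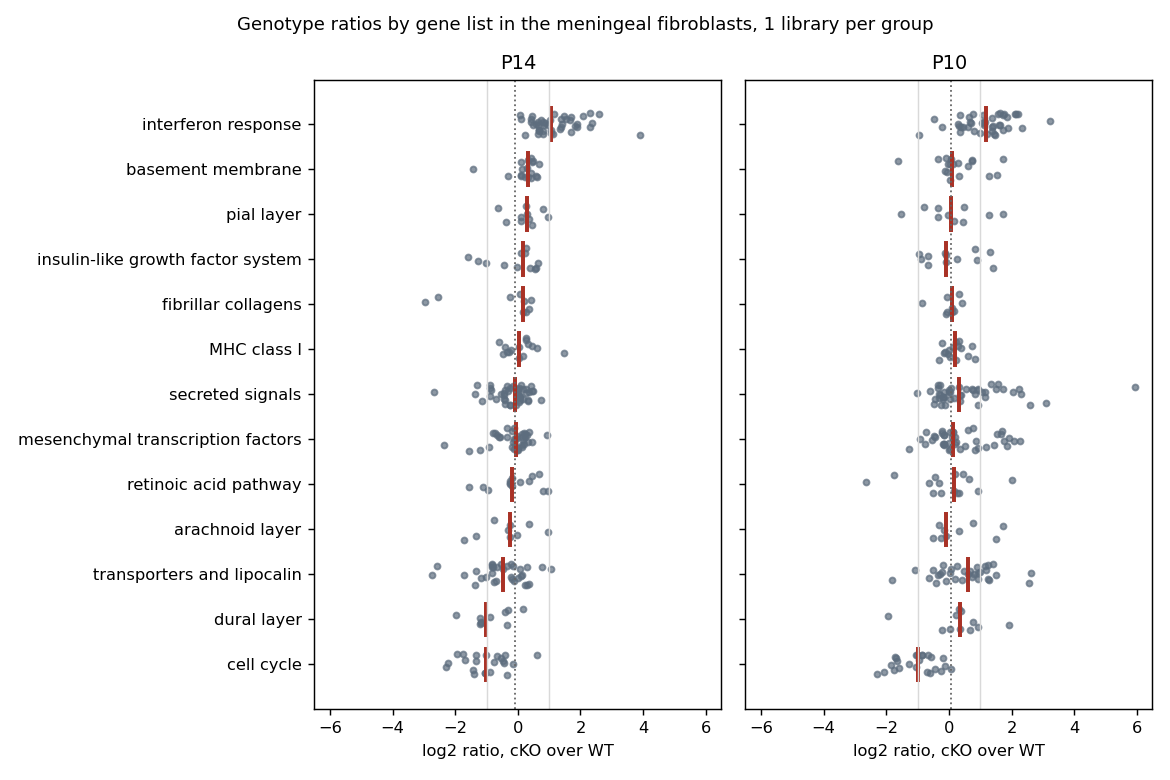
Log2 ratio of cKO over WT for the genes of 13 lists in the members at P14 (left) and P10 (right), 1 point per measured gene, with list medians as red bars, the median of all genes as a dotted line and grey lines at a doubling and a halving. The interferon list has medians of 1.05 and 1.19, the dural list −1.03 and 0.35, and the cell cycle list −1.02 and −0.99.

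Over all genes with at least 50 UMIs at P14, those whose intervals lay farthest above 0 included 5 that are in none of the lists. Ccl4, a macrophage chemokine, was at 4.25, 1.03, 3.29 and 82.4 CPM with a ratio of 4.59 (3.77 to 5.68), and 1 cell held 88.5% of its UMIs in P14 cKO. Olfm3, an olfactomedin, was at 0.224, 2.07, 2.40 and 29.1 CPM with 3.53 (2.52 to 4.88). The sialyltransferase gene St8sia4 was at 4.92, 10.8, 3.89 and 26.4 CPM with 2.72 (1.86 to 3.77), and 1 cell held 70.0% of its UMIs in P14 cKO. Lowest outside the lists were Clec11a, a secreted growth factor of the bone marrow, at 17.7, 25.3, 66.2 and 6.34 CPM with −3.33 (−4.36 to −2.55), Khdrbs2, an RNA-binding splicing regulator, at 3.28, 4.13, 41.6 and 3.70 CPM with −3.40 (−4.83 to −2.41), and the sorting receptor Sorcs1 at 1.86, 6.72, 24.9 and 1.06 CPM with −4.24 (−7.62 to −2.66). In all 3, P14 WT was the high library, and at P10 none of them was below its WT level.

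At P10 many more genes were past a doubling in cKO, 18.6% of 13784 against 5.33% past a halving. Among the 4692 genes with introns under 10 kb, 3.75% were past a doubling and 9.04% past a halving, 27.3% were above 0 and 72.7% below. The interferon list was higher in cKO at this age too, with 39 of 42 genes above 0 (54.3% of all measured genes were), 26 past a doubling, 32 intervals above 0 (30.1% of all measured genes had one) and a median of 1.19. For genes with short introns the median was 1.36 over 21 genes. Endothelial cells had the list at 1126.7 CPM in P10 WT and 4112.1 CPM in P10 cKO. In all other cells of the P10 libraries together the list had a median of −0.10. Usp18 had a ratio of 2.12 (1.54 to 2.67), Bst2 1.72 (1.47 to 1.96), Isg15 2.34 (1.97 to 2.70) and Ifit1 2.15 (1.66 to 2.61), whereas Rsad2 had −0.94 (−3.47 to 0.49) and Cxcl10, with 24 and 1 UMIs, −1.24 (−7.15 to 0.83). Usp18, Bst2, Isg15 and Ifit1 thus were higher in cKO at both ages, while the P10 intervals of Rsad2 and Cxcl10 held 0. Cell cycle genes were lower in 23 of 24 cases, where 45.7% of all measured genes were lower, with a median of −0.99, or −1.15 over 23 genes without the sub-clusters led by genes of other cell types, among them sub-cluster 5, which is nearly all P10 WT. The transporter list was higher in 23 of 33 with a median of 0.61, but its short-intron members had −0.31. Immediate early genes were lower in 22 of 23, with a median of −0.70, and oligodendrocyte markers in 10 of 10, with −4.10. Sub-cluster 10, with oligodendrocyte markers at 48945.6 CPM and 6 called doublets among 21 cells, held 18 P10 WT and 0 P10 cKO members. The part of this sub-cluster in the oligodendrocyte value was not tested.

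Both ages were put together in 1 edgeR quasi-likelihood fit of the summed member UMIs with terms for age and genotype, which left 1 residual degree of freedom. No gene of 12343 passed an adjusted p of 0.05 for genotype, and 613 had an unadjusted p under 0.05, 3.57% of all genes being higher and 1.39% lower. Of the 41 interferon genes tested, 40 were higher in cKO and 25 had an unadjusted p under 0.05, with a median log2 effect of 1.10 and a smallest adjusted p of 0.85. Usp18 had 2.22 (adjusted p = 0.85) and Ifit1 1.73 (adjusted p = 0.85). The cell cycle list had 23 of 24 genes lower, 13 with an unadjusted p under 0.05, and a median of −1.17. The basement membrane list had 15 of 18 higher with a median of 0.25, and the dural list 4 higher and 6 lower. Over all 12343 genes 6126 were higher in cKO and 6217 lower. Ttr had the smallest p, with −8.71 (adjusted p = 0.356). DESeq2 called 6 genes higher (0.0375% of 15984) and 3 lower (0.0188%). The higher ones were Car10, Camk1d, Kcnip4, Cntnap2, Nrxn3 and Gm19951, all lowest in P10 WT, the library in which genes with long introns were low. Camk1d, for example, was at 37.2, 706, 317 and 824 CPM and Car10 at 1.49, 71.3, 17.4 and 80.8 CPM. Whether intronic reads were counted alike in the libraries is not given in the sources used here, and the part of this in the genotype and age calls was not tested for these genes. The lower ones were Ttr, Bglap2 and Ibsp, and 1 P14 WT cell held 99.7% of the 776 Bglap2 UMIs and 1 held all 99 of Ibsp.

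For age, edgeR called 1 gene higher at P14 (0.00810% of genes) and none lower, with 5.01% of genes higher and 1.81% lower at an unadjusted p under 0.05. It was Gm10320, at 0.447, 0.517, 44.6 and 49.7 CPM, with a log2 effect of 6.51 (adjusted p = 0.0259). DESeq2 called 47 genes higher (0.415% of 11335) and 12 lower (0.106%). All 41 interferon genes were higher at P14, 31 with an unadjusted p under 0.05, and their median was 1.36 (smallest adjusted p = 0.163). All 24 cell cycle genes were lower, with a median of −1.86 (smallest adjusted p = 0.132). Sub-cluster 5, with cell cycle genes at 6493 CPM, granule neuron markers at 3257.4 CPM and 37 called doublets, had 135 of its 138 cells in P10 WT, and its part in the cell cycle values of both fits was not tested. The immediate early list had 22 of 23 higher, with a median of 0.98. Over all 12343 genes 6333 were higher at P14 and 6010 lower.

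The genotype effect in the members was set against that in all other cells of the same libraries in a fit with a block for library. edgeR called none of 19844 genes, 914 had an unadjusted p under 0.05 (2.65% of genes higher and 1.96% lower), and the smallest adjusted p was 0.15. DESeq2 called 20 higher (0.151% of 13273) and 17 lower (0.128%). Of 48 interferon genes, 41 had a larger effect in the members and 3 an unadjusted p under 0.05, with a median difference of 0.61 (smallest adjusted p = 0.745). The 2 ages were unlike in this. The list median of the genotype ratio was 1.05 in the members and 1.08 in the other cells at P14. At P10 it was 1.19 and −0.10. The basement membrane list had 17 of 18 with a larger effect in the members and 15 with an unadjusted p under 0.05, with a median difference of 1.47 (smallest adjusted p = 0.515). Rule genes had a larger effect in the members in 7 of 7 (median 1.85). Because the rule chose the members by these genes, that value describes the choice and carries no test. In the members they summed to 19324.5, 17397.2, 14850.1 and 16269.1 CPM, and in the other cells to 870.7, 40.68, 113.8 and 94.88 CPM. Perivascular fibroblast genes had a larger effect in the members in 8 of 8 (1.47). Of the mesenchymal transcription factors 38 of 45 did (0.99). Over all genes 10442 had a larger effect in the members and 9402 a smaller one. The basement membrane list summed to 1876.9 and 437.5 CPM in the other cells of P10 WT and P10 cKO, and to 9398.8 and 10211.5 CPM in their members. The P10 WT library, whose other cells had the highest sum of rule genes, enters these differences, and its part in them was not tested.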

How the data were processed

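Cells of 4 cerebellum libraries were analysed from the deposited raw UMI counts per gene and barcode, which the authors made with Cell Ranger 3.0.2 and mm10 per the submitters' processing notes, which also name Seurat 4.1.3. The file headers name other versions, 7.1.0 at P14 and, at P10, 5.0.0 in the WT and 7.0.1 in the cKO matrix. Whether intronic reads were counted is not given in the sources used here. The libraries held 158017834, 92315263, 145731767 and 91091692 UMIs (WT and cKO at P10, then at P14), over 16691, 6719, 15837 and 7281 barcodes. Barcodes with at least 500 genes and at most 20% mitochondrial UMIs were kept. Doublets were scored with Scrublet in scanpy 1.11.5 (score over 0.22) and kept, and 52, 6, 5 and 3 members were called.

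UMIs were summed over the members of a library. Ratios at 1 age are log2 of cKO over WT CPM with 0.5 UMIs added and exact 95% intervals, for genes with at least 20 UMIs in the pair, and a doubling or halving is a log2 ratio past 1. Fits over both ages used edgeR 4.0.16 (quasi-likelihood, filterByExpr with a minimum count of 10, Benjamini-Hochberg adjustment), with DESeq2 1.42.0 as an alternative, in R 4.3.3. They have no replicates within a group, so age by genotype differences enter their error. Sub-clusters came from Leiden clustering (2000 genes, 20 components, 15 neighbours, resolution 0.6). The statistics were checked on simulated counts. Members and the 36 gene lists were chosen with earlier results of these data known. Genes were named by level within a list (5), by the P14 intervals farthest from 0 (4 in each direction per list, and 10 over all genes) and by the fold over other cells (15). Ifit1, Isg15, Irf7, Ifnar1 and Ifnar2 were added by role after their values were seen. MAS-seq long reads, which the title mentions, were not used here, and results of some genes are not reported here.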

Additional observations from a re-analysis of the deposited data

Results flagged for a closer look

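For 4 lists the summed members' UMIs differed between genotypes in opposite directions at the 2 ages, with 1 library per genotype and age, so the difference between ages was not tested. The dural layer list had a log2 ratio of cKO over WT of −0.90 at P14 and 0.61 at P10. P10 WT was the library in which genes with long introns were low, and the part of this in the P10 value was not tested. Skull and cartilage markers had −3.19 and 0.53, and most of their P14 WT UMIs came from 1 cell with Bglap. Macrophage and microglia markers had 1.78 at P14 and −1.84 at P10. The other cells moved the same way, with 1401.0 CPM of these markers in WT and 3093.6 CPM in cKO at P14, and 5126.9 and 1098.5 CPM at P10. Erythroid markers had 0.81 at P14 and −8.27 at P10, where P10 WT members held 4385.6 CPM of them.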

How the results depend on the processing

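No paired analysis was possible because the labels give no replicate numbers and each group is 1 library. The interferon list stayed higher in cKO under every alternative run, with P14 medians from 0.25 to 1.25 (0.65 over 43 genes without the cell with most list UMIs) and P10 medians from 1.08 to 1.36. Counted over each named gene and each alternative at P14, 670 values stayed within the counting interval, 178 moved and 24 reversed. The causes were not tested.

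The share of members in P10 WT was 9.30% with at least 3 rule genes, 7.14% with 5, 8.32% with 1000 genes per barcode and 9.96% after thinning, and in P14 WT 2.01% with 3 rule genes. After thinning the P14 median was 0.11 for basement membrane and 0.0306 for choroid plexus. As means over cells, it was 0.10 for basement membrane and 0.19 for the arachnoid layer, Ptgds was at 0.17, Rbp4 at 0.36, and 470 genes passed a doubling. Within sub-cluster 3, it was 0.089 for basement membrane, −0.15 for dural, 0.30 for cell cycle and −0.0153 for immediate early genes, with H2-D1 at 0.0863, Fxyd5 at 0.0114 and Ccn3 at 0.27, and 178 and 377 genes passed a doubling and a halving. With at least 50 UMIs these were 139 and 281.

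In members without an exclusion gene UMI, the P14 median was −0.0693 for basement membrane, 0.25 for interferon, 0.60 for cell cycle, −0.14 for pial, −0.17 for rule genes and 0.45 for choroid plexus. There Ifit2 was at −2.08, Isg15 at −0.28, Bst2 at −0.57, Sparc at −0.26, Col4a1 at −0.0685, Lamb1 at −0.0693, Lamb2 at 0.0229, Col1a1 at −0.084, Col1a2 at −0.29, Col3a1 at −0.16, Ptgds at 1.25, Rbp4 at 0.0469, Ccl2 at −2.06, Mki67 at 0.19 and Tjp1 at −0.18. Without sub-clusters led by genes of other cell types, cell cycle was at 0.23, Top2a at 0.15, Mki67 at 0.30 and Ube2c at 0.41, and at P10 mural markers were at 0.21, choroid plexus at 0.0616 and 410 genes passed a halving. The dural median was −1.26 without its sub-clusters and −1.29 without the top cell of each gene, where Ccl2 was at −1.05. At P10, genes with introns under 10 kb gave 176 and 424 past a doubling and a halving and −0.31 for transporters.

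For genotype, edgeR called 280 genes higher and 54 lower without a filter on low counts, 1 lower with at least 5 rule genes, and DESeq2 6 and 3. For age these were 396 and 106 without a filter, 3 and 1 with at least 5 rule genes, 0 higher without called doublets, 1 lower among genes with short introns, and 47 and 12 with DESeq2. For members against other cells they were 5 and 6 among genes with short introns, 20 and 17 with DESeq2, and 1 and 2 against endothelial cells.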
